A study of Saccharomyces cerevisiae with 18 samples.

Results

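A set of 31 genes of Saccharomyces cerevisiae that drive meiotic entry, recombination and chromosome pairing was followed through spore germination. The genes were taken from a fixed list and matched to the array by symbol or open reading frame, and the list was drawn up with earlier results of these data known. A probe was found for 30 of the 31, all 30 had a value in every group, and they were read against 5826 genes with a value in every group. HED1 was not measured here.

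Spores of the diploid Y55 strain background were suspended in YPD, a rich medium that holds peptone and yeast extract beside glucose, or in 2% glucose alone. RNA was taken at 0, 4, 8 and 16 min and then at 32, 48, 64, 96 and 128 min. Each such sample carried Cy5 and shared 1 of 53 spotted arrays with Cy3-labelled RNA of dormant spores, taken before the germinant was added. A log2 Cy5/Cy3 ratio above 0 is therefore read as a higher level than in dormant spores. The 18 groups, a medium at a time, held 3 arrays each, except 0 min in glucose with 2. No dye swap was made, so a dye effect of a gene cannot be told from its level against dormant spores. All groups share the strain, the sporulation in acetate and the enzymatic spore purification, and the pooled RNA of a spore population cannot tell fewer cells expressing a gene from less RNA per cell.

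In sporulating yeast, nutrient signals converge on Ime1, a transcription activator that turns on the early meiotic genes together with the kinase Ime2. The early genes encode the machinery that breaks the chromosomes, aligns homologues along a protein axis, invades the homologue with a recombinase and turns some of the intermediates into crossovers. Ndt80, a second activator, then switches on the middle sporulation genes and takes the cell out of prophase. A spore has already passed through this programme. In vegetative cells most of the early genes are held off by the Ume6 repressor.

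The arrays differed in quality and in the day on which they were quantified. Replicate arrays correlated across genes between 0.63 and 0.94 in YPD. In glucose the correlation was 0.23 at 0 min, between 0.06 and 0.37 at 4 min, between 0.27 and 0.69 at 8 min and between 0.64 and 0.91 later. The arrays were quantified on 13 days, and 0 min in YPD shared a day with 8 min only, so at 4, 16 and 32 min in YPD the day and the time cannot be told apart. From 48 min on, the days of YPD connect to 0 min only through the arrays in glucose. In glucose, 1 array of each time shared a day with 1 array of 0 min. A second array layout was used on 11 arrays, all in glucose, and gave every member the same probes.

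Many of the 30 genes were dim. A gene was counted as above background on an array when a spot exceeded the local background by 2 SD. In the dormant-spore channel, 13 of the 30 were above background on at least 50% of the arrays read, against 71.9% of all genes. In the Cy5 channel 18 of the 30 passed, against 91.7% of all genes, and 12 stayed under in both dyes. The dormant-spore transcript was above background on every array read for 3 members, IME4, REC107 and ZIP1, and on no array for 2, REC8 and SPO13. REC8, the meiotic cohesin subunit that holds sister chromatids together, was not above background in either dye on any of 53 arrays. IME1 was above background in Cy3 on 5 of 51 arrays and in Cy5 on 30, and MEI4 on 5 and 23 of 52. NDT80 was above background in Cy3 on 33 and in Cy5 on 51 of 52 arrays.

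**Figure D1:**
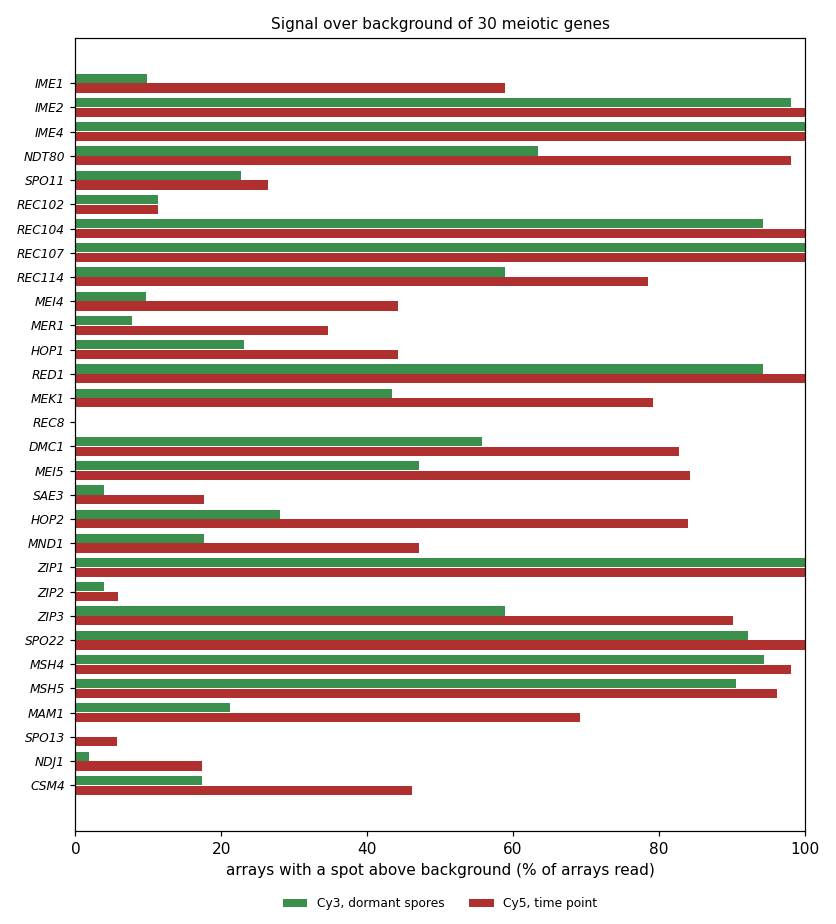
Share of the arrays read, in percent, on which each of 30 meiotic genes had a spot above background, in the dormant-spore channel (Cy3) and in the channel of the time point (Cy5). IME4, REC107 and ZIP1 reach every array in both dyes, whereas REC8 has no bar and SPO13 none in Cy3.

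Against 0 min in YPD, 8 of the 30 genes rose and 14 fell at 1 or more times, by limma at a Benjamini-Hochberg adjusted p under 0.05, adjusted over all genes tested. The background over all genes was 41.5% up and 44.1% down, and the members stood at 26.7% and 46.7%. None of the 8 that rose was among the 14 that fell. In glucose 1 member rose and 9 fell, which is 3.33% and 30% of the members, with 21.5% of all genes in each direction. The share that fell lay near the background in YPD, and the share that rose lay under it in both media. The count of falls in glucose moved with single replicates, to 15 without glucose replicate 3. Without glucose replicate 1 or 2 the count was lower than with all arrays, but 0 min then kept 1 array only. The share of all genes was not counted in these fits, so the distance from the background in them is not known.

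In YPD fewer members were called at 4 and 8 min than at any later time, and the same held for all genes. At 4 min no member was called in YPD, where limma called 7.88% of all genes up and 6.21% down, and 2 members up and 4 down had an unadjusted p under 0.05. At 8 min 2 members were up and 1 down (all genes, 10.8% and 5.46%), and at 16 min 2 were up and 10 down (22.7% and 25.8%). From 16 min on the falls outnumbered the rises at every time, among the members and among all genes. At 32 min 5 members were up and 7 down (all genes, 22.4% and 26.5%), and at 48 min 3 were up and 6 down (19.4% and 26.3%). At 64 min 5 were up and 8 down (22.9% and 28.5%), at 96 min 3 up and 7 down (20.4% and 26.3%) and at 128 min 3 up and 7 down (18.5% and 25.8%).

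In glucose no member was called at 4 min, where no gene was called at all, or at 8 min (all genes, 2.44% up and 0.395% down). At an unadjusted p under 0.05, 1 member was down at 4 min, and 1 was up and 2 were down at 8 min. At 16 min 1 was down (all genes, 9.22% up and 6.75% down), and at 32 min 1 was up and 1 down (8.32% and 9.15%). The highest count in glucose was 7 down at 48 min, or 23.3% of the members, with 8.41% of all genes up and 10.4% down. After that no member was up. The falls numbered 3 at 64 min (all genes, 11.4% up and 12.6% down), 5 at 96 min (11.5% and 13.8%) and 5 at 128 min (11.4% and 14.1%).

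**Figure D2:**
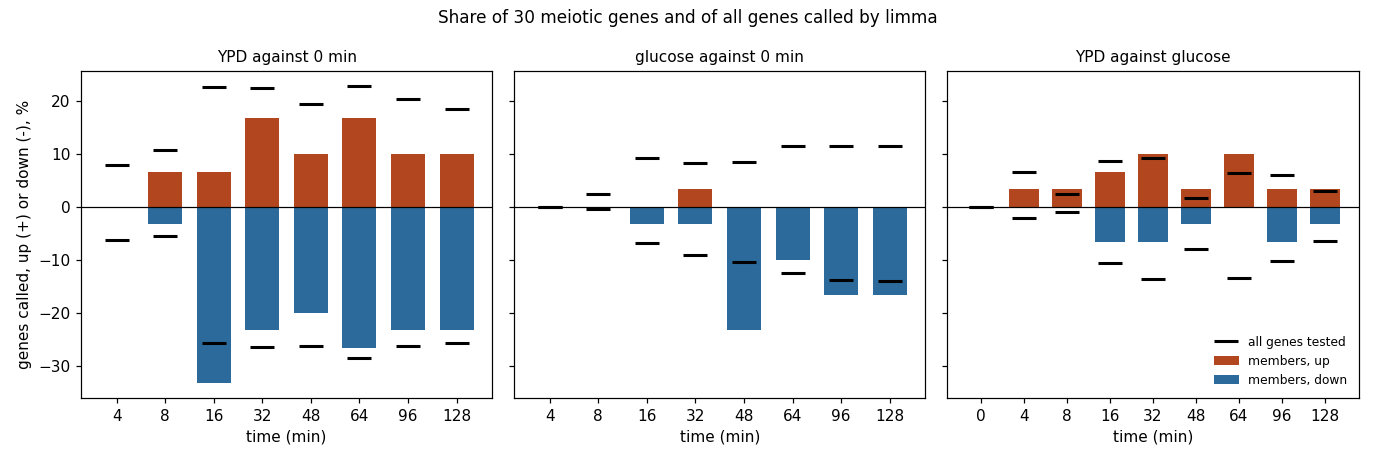
Percent of the 30 meiotic genes called up (above 0) and down (below 0) by limma at an adjusted p under 0.05, by time in minutes, for YPD against 0 min, glucose against 0 min and YPD against glucose. Black marks give the percent of all 5826 genes, which the members' bars for falls pass at 16 min in YPD (33.3%) and from 48 min on in glucose except at 64 min.

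**Figure D3:**
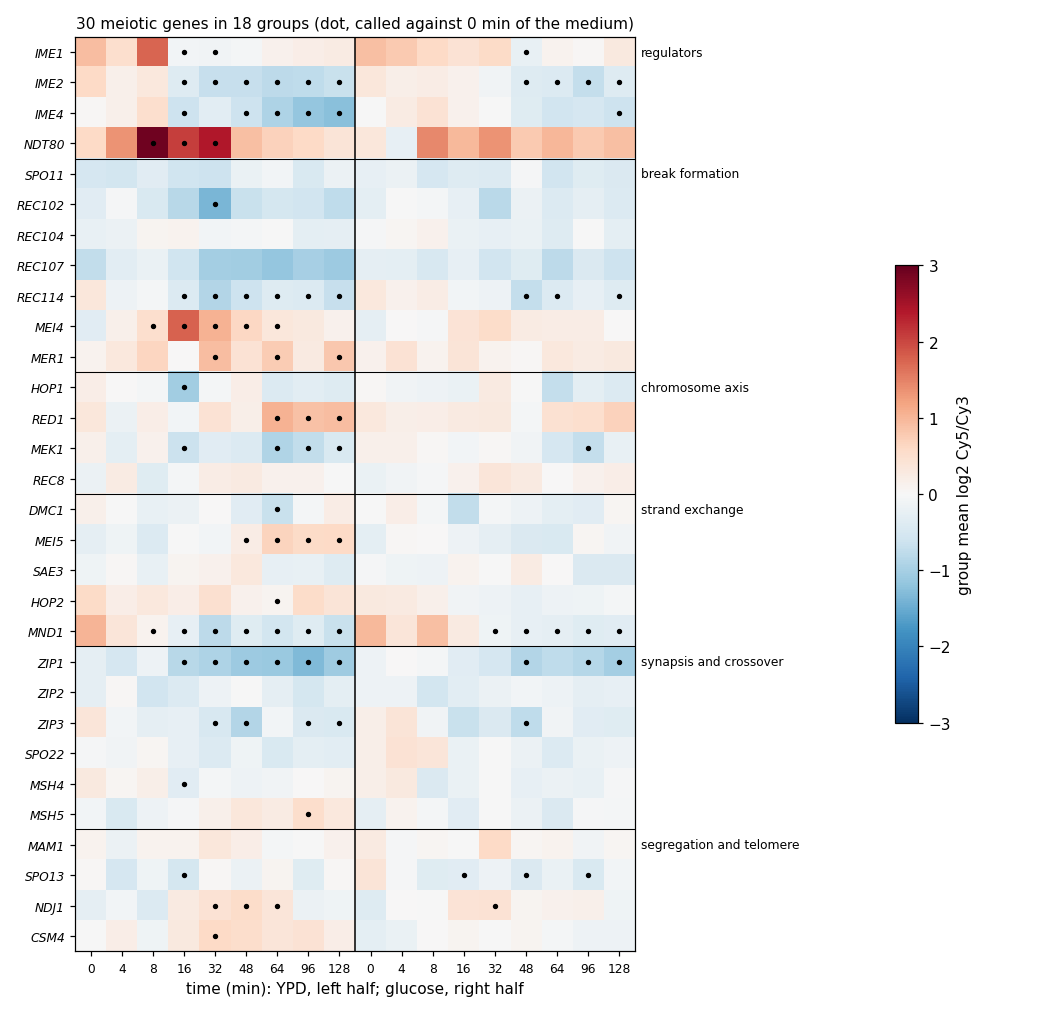
Mean log2 Cy5/Cy3 of 30 meiotic genes in the 18 groups (time in minutes, YPD on the left and glucose on the right), with a dot where limma called the difference from 0 min of the same medium. NDT80 carries the deepest red, with a mean of 2.92 at 8 min in YPD, and ZIP1 and IME4 long blue runs in YPD.

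The depth of these calls differed. Of 69 calls in YPD, 41 had Cy5 signal above background on at least 1 array of each group compared. In 7 there was none in either group, and the others had it in 1 group only. In glucose 19 of 23 calls had signal on at least 1 array of each group. Leaving out each array or replicate number in turn, 31 of the 69 calls in YPD were kept every time, and these concern 10 genes: NDT80, IME2, IME4, MEI4, REC114, HOP1, RED1, MEI5, MND1 and ZIP1. No call in glucose was kept in every such fit. With the quantification day as a random block, 45 of the 69 calls in YPD and 14 of the 23 in glucose were kept. With the day as a fixed block, 11 of the 45 calls in YPD that could be fitted and 1 of 23 in glucose were kept.

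Of the 4 regulators, NDT80 rose in YPD and the 3 IME genes fell. NDT80 (YHR124W), the activator of the middle sporulation genes, gave log2 ratios of 0.08, 1.64 and 0.04 at 0 min in YPD and of 2.70, 3.33 and 2.75 at 8 min. The arrays of 8 min all lay above those of 0 min, where replicate 2 stood apart from the other two. The rise against 0 min was 2.34 on the log2 scale, or 5.05-fold (SE 0.33, n = 3 against 3, limma adjusted p = 1.08e-06). At 16 min the arrays gave 2.41, 1.65 and 2.15 and at 32 min 2.63, 2.18 and 2.42, which were 2.80-fold and 3.54-fold above 0 min (limma adjusted p = 0.000234 and 1.25e-05). From 48 min on NDT80 was no longer called, with means of 0.90 at 48 min and 0.39 at 128 min. The calls at 8, 16 and 32 min were kept with every array left out and in the alternative fits that gave a value, which do not include the day as a fixed block at 16 and 32 min, where it could not be fitted. Within the 1 quantification day that 0 and 8 min share the rise at 8 min was 2.08, and with the day as a fixed block 2.05. At 8 min the dormant-spore channel was not above background for NDT80 on any of the 3 arrays, while Cy5 was on all 3.

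In glucose NDT80 gave 0.15 and 0.55 at 0 min, 0.75, 1.36 and 2.24 at 8 min and 1.29, 2.01 and 0.72 at 32 min. The arrays of 8 and 32 min lay above both arrays of 0 min, but no time was called. The difference from 0 min was 1.10 at 8 min (limma adjusted p = 0.1) and 0.99 at 32 min (limma adjusted p = 0.0549).

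IME2 (YJL106W), the kinase that carries the early programme forward, fell in both media. Its arrays gave 0.19, 1.32 and 0.31 at 0 min in YPD, −0.48, −0.47 and −0.23 at 16 min and −0.66, −0.82 and −0.56 at 128 min. All arrays from 16 min on lay below all 3 arrays of 0 min. The fall was 2.00-fold at 16 min and 2.46-fold at 32 min (limma adjusted p = 0.000123 and 2.17e-06) and 2.60-fold at 64 min, and each of these calls was kept with every array left out. With the day as a fixed block the call at 96 min was kept, at −1.10 (limma adjusted p = 0.0237), those at 48, 64 and 128 min were lost, with adjusted p of 0.354, 0.0978 and 0.0846, and 16 and 32 min could not be fitted. In glucose IME2 went from 0.16 and 0.51 at 0 min to −0.71, −0.72 and −0.70 at 96 min. That fall of 1.05 on the log2 scale (limma adjusted p = 0.000807) was the only member call in glucose kept with the day as a fixed block, and without glucose replicate 2 its adjusted p was 0.0892. IME2 was above background in Cy5 on 53 of 53 arrays.

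IME4 (YGL192W), the mRNA adenosine methyltransferase needed for meiosis, fell at 16 min and from 48 min on in YPD. At 0 min in YPD its arrays gave 0.16, −0.03 and −0.06, at 64 min −0.87, −0.56 and −1.33 and at 128 min −1.17, −1.01 and −1.58. The groups did not overlap, and the fall was 1.92-fold at 64 min, 2.27-fold at 96 min and 2.42-fold at 128 min (limma adjusted p = 0.000178, 7.6e-06 and 2.35e-06). At 64 and 96 min the call was kept in all alternative fits, and at 128 min in all but the one with the day as a fixed block. In glucose IME4 was called at 128 min only, at −0.61 (limma adjusted p = 0.0459), a call lost in 9 of 11 fits with arrays left out. IME4 overlaps the antisense transcript RME2, and since the strand of the probes is not given in the sources used here both transcripts cannot be told apart.

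IME1 (YJR094C), the activator at the head of the programme, was close to background. In YPD it gave 0.77, 1.20 and 0.85 at 0 min, 1.86, 0.76 and 2.64 at 8 min and −0.36, −0.01 and 0.11 at 16 min, but Cy5 was above background on none of these 9 arrays. The falls called at 16 min (−1.02, limma adjusted p = 0.0161) and 32 min (−1.05, limma adjusted p = 0.014) therefore compare with a group that had no signal above background. Leaving out replicate 2 of 0 min in YPD ended both calls. In glucose IME1 was called at 48 min, at −1.13 (limma adjusted p = 0.0405), and 6 of 10 fits with arrays left out lost it.

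**Figure D4:**
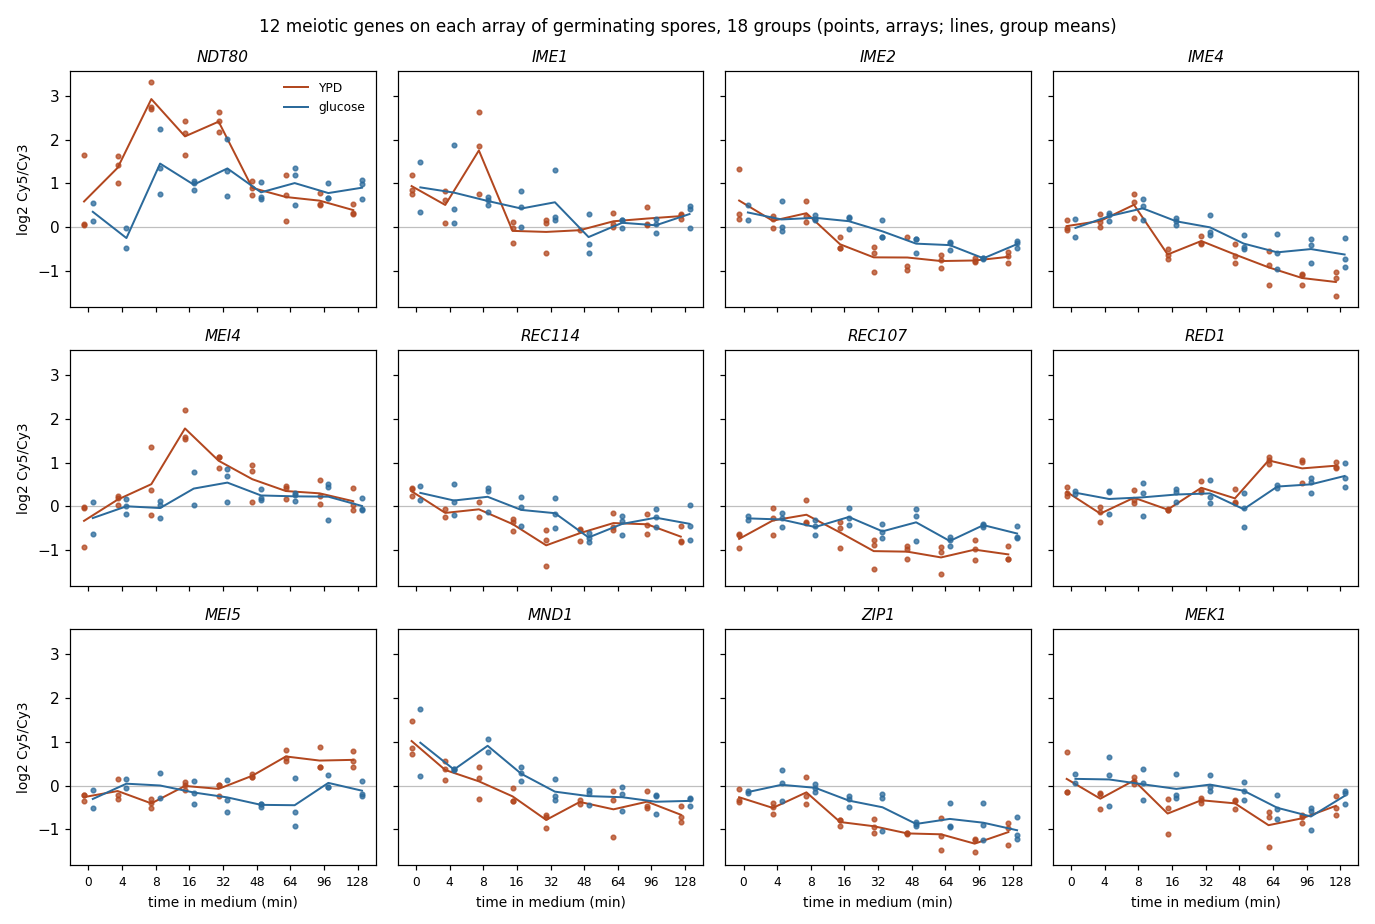
Log2 Cy5/Cy3 of 12 meiotic genes on each array (points) and as group means (lines), by time in minutes, in YPD and glucose. NDT80 peaks in YPD with 2.70, 3.33 and 2.75 at 8 min, MEI4 with 1.58, 2.21 and 1.54 at 16 min, and IME2, IME4, REC114 and ZIP1 decline in YPD.

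Among 7 genes for the formation of double-strand breaks, MEI4 and MER1 rose and REC114 and REC102 fell in YPD. Mei4, Rec114 and Rec107 (also called Mer2) bind one another and help Spo11, the enzyme that cuts the DNA. MEI4 (YER044C-A) gave −0.05, −0.94 and −0.01 at 0 min in YPD, 1.58, 2.21 and 1.54 at 16 min and 0.88, 1.12 and 1.12 at 32 min. Every array of 16 and 32 min lay above every array of 0 min. The rise was 2.11 on the log2 scale at 16 min (SE 0.28, limma adjusted p = 8.58e-08) and 1.37 at 32 min (limma adjusted p = 0.000106), and both calls were kept with every array left out and in the alternative fits that gave a value. The day as a fixed block could not be fitted at either time. Cy5 was not above background at 0 min, so the rise of the Cy5 signal alone is a bound, at least 1.47-fold at 16 min and at least 1.05-fold at 32 min. The measured group means of log2 Cy5 moved less than the ratio did, from 8.13 (0 min) to 8.76 (16 min) and 8.26 (32 min). The part of the dormant-spore channel in the rise of the ratio was not tested. The smaller rises called at 8, 48 and 64 min, between 0.68 and 0.95, were each lost without replicate 2 of the arrays in YPD, with an adjusted p of up to 0.495. At 48 and 64 min the mean log2 Cy5 signal, 7.59 and 7.00, was lower than at 0 min. In glucose MEI4 was not called at any time, and its means lay between −0.27 at 0 min and 0.54 at 32 min.

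REC114 (YMR133W) moved the other way, although its product works in one complex with Mei4. It gave 0.23, 0.42 and 0.39 at 0 min in YPD, −0.76, −0.54 and −1.37 at 32 min and −0.45, −0.80 and −0.82 at 128 min. The fall was called at all 6 times from 16 min on and was deepest at 32 min, at 2.35-fold (SE 0.22, limma adjusted p = 1.29e-05), a call kept with every array left out and in the alternative fits that gave a value, the fixed day block not among them. The call at 16 min was lost without YPD replicate 3, that at 64 min without replicate 2 and that at 96 min without replicate 1 or 2 (highest adjusted p 0.0525, 0.0829 and 0.0619). These 3 calls were also lost with the day as a random block, and with the day as a fixed block none of the calls from 48 min on was kept, with differences from −0.05 at 48 min to −0.82 at 128 min. In glucose REC114 fell 2.02-fold at 48 min (limma adjusted p = 0.0033), where −0.80, −0.72 and −0.61 lay below the 0.14 and 0.47 of 0 min. Without replicate 2 of 0 min in glucose this call was lost as well.

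REC107 (YJR021C) had signal in both dyes on all 53 arrays, and its mean ratio lay below 0 in all 18 groups. Its arrays gave −0.65, −0.94 and −0.63 at 0 min in YPD and −1.03, −0.93 and −1.53 at 64 min. The ratio was below 0 at 0 min already, and without a dye swap a lower level cannot be told from a dye effect. No difference from 0 min was called in either medium. MER1 (YNL210W), which activates the splicing of meiotic introns, rose 1.77-fold at 32 min in YPD (limma adjusted p = 0.0123), with 1.07, 0.86 and 0.86 against −0.15, 0.15 and 0.31. Cy5 was above background on the 3 arrays of 32 min and on none of 0 min, and the call was lost without replicate 1 of 0 min (highest adjusted p 0.0945). MER1 was called again at 64 and 128 min, each lost in 6 or more of 12 fits with arrays left out.

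REC102 (YLR329W), a partner of Spo11, was called down at 32 min in YPD (−1.04, limma adjusted p = 0.00277), but neither group had Cy5 above background, and with plain background subtraction the difference turned to 1.43. SPO11 itself was above background in Cy5 on 14 of 53 arrays. Its group means lay between −0.62 and −0.05, and no time was called in either medium. REC104, which acts with Rec102, was bright, with Cy5 above background on 52 of 52 arrays. Its group means stayed between −0.39 and 0.13, with no call.

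Of the 4 genes of the chromosome axis, the proteins along which sister chromatids are organised in meiosis, RED1 rose and HOP1 and MEK1 fell in YPD. RED1 (YLR263W), a structural protein of the axis, gave 0.23, 0.32 and 0.45 at 0 min, 1.06, 0.97 and 1.12 at 64 min and 0.90, 0.87 and 1.02 at 128 min. It was above background in Cy5 on 52 of 52 arrays, and the groups did not overlap. The rise at 64 min was 1.64-fold (SE 0.19, limma adjusted p = 0.00172) and was kept in all alternative fits, among them the day as a fixed block, and with every array left out. At 96 and 128 min the rise was 1.45-fold and 1.51-fold (limma adjusted p = 0.0196 and 0.01), and with arrays or replicates left out the adjusted p reached 0.2 and 0.0813. In glucose RED1 went from 0.28 and 0.34 at 0 min to 0.45, 0.65 and 0.98 at 128 min and was not called.

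HOP1 (YIL072W), the axis protein that Red1 recruits, fell at 16 min in YPD and at no other time. It gave 0.20, 0.27 and 0.10 at 0 min and −1.64, −0.89 and −0.61 at 16 min, a 2.36-fold fall (limma adjusted p = 0.000779) kept with every array left out and in the alternative fits that gave a value. The day as a fixed block could not be fitted at 16 min. Both dyes were above background on 3 of 3 arrays at 0 min and on none at 16 min. The ratio at 16 min therefore comes from spots that were not above background in either dye. MEK1 (YOR351C), the kinase that steers repair to the homologue, fell at 16, 64, 96 and 128 min in YPD. It gave −1.40, −0.60 and −0.71 at 64 min against 0.77, −0.15 and −0.15 at 0 min, a 2.08-fold fall (limma adjusted p = 0.000361). Each of these calls was lost without YPD replicate 1, whose 0 min array stood highest. In glucose MEK1 was called at 96 min only, at −0.86 (limma adjusted p = 0.016), and 5 of 11 fits with arrays left out lost it.

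Strand exchange in meiosis rests on the recombinase Dmc1, its loader Mei5-Sae3 and the pairing factor Hop2-Mnd1. MEI5 rose in YPD, while MND1, DMC1 and HOP2 fell. MEI5 (YPL121C) gave −0.22, −0.22 and −0.34 at 0 min and 0.20, 0.20 and 0.27 at 48 min. At 64 min it gave 0.82, 0.62 and 0.55 and at 128 min 0.42, 0.79 and 0.55, all above the arrays of 0 min. The rise was 1.90-fold at 64 min, 1.78-fold at 96 min and 1.80-fold at 128 min (limma adjusted p = 0.000225, 0.000947 and 0.000802), and the calls at 64 and 128 min were kept with every array left out. All 3 calls were lost when spots marked empty were left out too, with differences of 0.47 at each time (limma adjusted p between 0.256 and 0.27), and that at 128 min also with the day as a fixed block (adjusted p 0.256). Without YPD replicate 3 the adjusted p at 96 min was 0.064. Cy5 was not above background at 0 min, so the rise of the Cy5 signal alone is a bound, at least 1.59-fold at 64 min. MEI5 was called at 48 min as well, at 0.49 (limma adjusted p = 0.049), and 10 of 12 fits with arrays left out lost that call.

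MND1 (YGL183C) was called down at all 7 times from 8 to 128 min in YPD and at all 5 from 32 to 128 min in glucose, but its signal was weak. In YPD it gave 0.73, 0.85 and 1.47 at 0 min, −0.67, −0.71 and −0.97 at 32 min and −0.83, −0.71 and −0.46 at 128 min. The fitted fall was 3.48-fold at 32 min and 3.21-fold at 128 min (limma adjusted p = 2.5e-07 and 1.02e-06). No array of 0 min in YPD had MND1 above background in either dye, so these ratios compare with spots at background. In Cy5 it was above background on 3 of 3 arrays at 8 min and at 64 min, times at which the ratio was called lower. The call at 32 min was kept in the alternative fits that gave a value, while that at 8 min was lost without background subtraction, and against dormant spores its difference was 0.098. With the day as a fixed block the calls from 48 min on in YPD (adjusted p between 0.381 and 0.707) and all those in glucose were lost. In glucose the 2 arrays of 0 min gave 0.22 and 1.74. The falls called there, with differences from −1.12 to −1.35, were all lost without the second of them, with differences from −0.36 to −0.59 and adjusted p between 0.208 and 0.562.

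DMC1 (YER179W) and HOP2 (YGL033W) were called down at 64 min in YPD only, at −0.82 (limma adjusted p = 0.012) and −0.50 (limma adjusted p = 0.0362). DMC1 rested on 2 arrays at 64 min and was lost without replicate 1 of that time, with an adjusted p of 0.143. HOP2 gave −0.04, 0.16 and 0.09 against 0.34, 0.81 and 0.56, and 8 of 12 fits with arrays left out lost it. With the day as a fixed block its difference was 0.43, and against the dormant spores it was 0.071, both in the other direction. SAE3, the partner of MEI5, was above background in Cy5 on 9 of 51 arrays and was not called.

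Synapsis and crossover formation were represented by 6 genes, of which ZIP1, ZIP3 and MSH4 fell and MSH5 rose in YPD. ZIP1 (YDR285W), the central filament of the synaptonemal complex, had signal in both dyes on all 53 arrays. It gave −0.08, −0.33 and −0.38 at 0 min in YPD, −1.11, −1.09 and −1.07 at 48 min and −1.24, −1.50 and −1.22 at 96 min, with no overlap. ZIP1 was called down at all 6 times from 16 min on, most at 96 min with 2.08-fold (SE 0.21, limma adjusted p = 7.38e-05), and the 4 calls from 48 min on were kept with every array left out. None of these 4 was kept with the day as a fixed block. In glucose ZIP1 went from −0.16 and −0.13 to −1.21, −1.13 and −0.71 at 128 min, a 1.83-fold fall (limma adjusted p = 0.00563). This call was lost without replicate 2 of 0 min in glucose, with the adjusted p reaching 0.111 over the fits with arrays left out.

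ZIP3 (YLR394W), a factor that marks sites of synapsis initiation, fell 2.36-fold at 48 min in YPD (limma adjusted p = 0.00224), where 2 arrays gave −0.75 and −1.01 against 0.05, 0.47 and 0.54 at 0 min. Without YPD replicate 2 the adjusted p was 0.0771, and with the day as a fixed block the difference turned to 0.088. ZIP3 was also called at 32, 96 and 128 min in YPD and at 48 min in glucose, each lost in 5 or more of the fits with arrays left out. The Msh4-Msh5 pair, which stabilises crossover intermediates, was bright but moved little. MSH4 fell 1.54-fold at 16 min (limma adjusted p = 0.00922; 0.122 without YPD replicate 2), and MSH5 rose 1.53-fold at 96 min (limma adjusted p = 0.0264; lost in 6 of 12 fits with arrays left out).

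ZIP2, which acts with Zip3, was above background in Cy5 on 3 of 52 arrays and overlaps the antisense transcript RME3. It was not called. SPO22, also known as ZIP4, was above background in Cy5 on 51 of 51 arrays, and its group means stayed between −0.46 and 0.43, with no call.

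Of the 4 genes for chromosome segregation and telomere movement, 3 were under background on most arrays in Cy5, and MAM1 was not. SPO13, which keeps sister kinetochores and cohesion together in the first division, was above background in Cy5 on 3 of 53 arrays and never in Cy3. Its calls, down at 16 min in YPD and at 16, 48 and 96 min in glucose, all compare groups without signal above background. NDJ1, which attaches telomeres to the nuclear envelope, was called up at 32, 48 and 64 min in YPD, by 0.64 to 0.82 on the log2 scale, and at 32 min in glucose. It was above background in Cy5 on 9 of 52 arrays, each call was lost without single arrays or replicates, and with the day as a fixed block the differences at 48 and 64 min in YPD were −0.51 and −0.87. CSM4, which moves telomeres, was called up at 32 min in YPD at 0.60 (limma adjusted p = 0.0401), lost in 9 of 12 fits with arrays left out. MAM1, the meiotic subunit of monopolin, was above background in Cy5 on 36 of 52 arrays and was not called.

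Between media at the same time, 7 members were higher and 5 lower in YPD at 1 or more times, or 23.3% and 16.7%, against 25.8% and 27.9% of all genes. At 0 min no member was called (all genes, 0.0343% higher and 0% lower), and 1 had an unadjusted p under 0.05. At 4 and at 8 min 1 was higher and none lower, against 6.57% and 2.13% of all genes at 4 min and 2.4% and 1.03% at 8 min. At 16 min 2 were higher and 2 lower (all genes, 8.62% and 10.7%), and at 32 min 3 and 2 (9.27% and 13.6%). At 48 min 1 was higher and 1 lower (1.6% and 7.93%), and at 64 min 3 were higher and none lower (6.3% and 13.5%). At 96 min 1 was higher and 2 lower (6.09% and 10.2%), and at 128 min 1 and 1 (3.02% and 6.49%).

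NDT80 was higher in YPD at 4 times. At 4 min it gave 1.02, 1.42 and 1.63 in YPD and −0.01 and −0.49 in glucose, a 3.04-fold difference (limma adjusted p = 0.00333), and without replicate 2 of 4 min in glucose the adjusted p was 0.0619. Both glucose values of 4 min came from the second layout and all YPD values from the first, so medium and layout cannot be told apart within that time. With the layout as a block over all groups the difference was 1.12 (limma adjusted p = 0.0513), and with the day as a random block 1.42 (limma adjusted p = 0.0585). At 8 min the difference was 1.47 on the log2 scale (limma adjusted p = 0.00897), but on the 1 quantification day that both media share it was 0.68, and with the day as a fixed block 0.74 (limma adjusted p = 0.283). That call was lost in 4 of 12 fits with arrays left out. At 16 and 32 min NDT80 was 2.15-fold and 2.10-fold higher in YPD (limma adjusted p = 0.0134 and 0.0159), with no shared day, and the adjusted p reached 0.092 and 0.122 with arrays left out and was 0.152 and 0.08 with the day as a random block.

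MEI5 was higher in YPD at 48, 64 and 128 min, and MEI4 at 16 min. At 64 min MEI5 gave 0.82, 0.62 and 0.55 in YPD and −0.92, −0.60 and 0.17 in glucose, a 2.16-fold difference (limma adjusted p = 8.62e-05) kept with every array left out but not with the day as a fixed block. The glucose array at 0.17 was of the second layout, and the others were of the first, as were all in YPD. The calls of MEI5 at 48 and 128 min were lost in 11 and 7 of 12 fits with arrays left out. MEI4 at 16 min was 2.59-fold higher in YPD (limma adjusted p = 0.00173), from 3 arrays against 0.03 and 0.79 in glucose, and without the first of these the adjusted p was 0.0945. IME4 was lower in YPD at 16, 96 and 128 min. The call at 16 min, −0.76 (limma adjusted p = 0.00699), was kept with every array left out but lost with the day as a random block (adjusted p 0.0978), and the media share no day at 16 min, while those at 96 and 128 min were lost in 7 and 9 of 12 such fits. REC107 was lower in YPD at 48 and 96 min, at −0.67 and −0.56 (limma adjusted p = 0.0244 and 0.0499), lost in 7 and 10 of 12 such fits. HOP2 was higher in YPD at 32 and 96 min, and at 96 min the difference of 0.67 (limma adjusted p = 0.0179) was kept with the day as a fixed block and lost in 7 of 12 fits with arrays left out. The call of HOP2 at 32 min was lost in 10 of 12 such fits.

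The other members called between media were IME2, REC114 and MER1 at 32 min, HOP1 at 16 min, and RED1 and MSH5 at 64 min, each lost in 5 or more of 12 fits with arrays left out. The difference between the media of the change since 0 min was tested too. It was called for 1 member, MEI5 at 64 min, at 1.07 on the log2 scale (SE 0.31, limma adjusted p = 0.0302), which is 3.33% of the members against 12.3% of all genes at 1 or more times (4.5% up, and 1.05% up at 64 min). For NDT80 that difference of changes was 1.37 at 4 min (limma adjusted p = 0.216) and 1.24 at 8 min (limma adjusted p = 0.586), so a larger rise of NDT80 in YPD than in glucose was not shown by this test.

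A filter without a test, a mean ratio to dormant spores of 2-fold or more at 2 consecutive times, both higher or both lower, passed 2 members up and 3 down in YPD. These were NDT80 and MEI4 up and IME4, REC107 and ZIP1 down, or 6.67% and 10% of the members against 16.6% and 16.5% of all genes. In glucose no member passed, while 8.74% of all genes passed up and 8.87% down. NDT80 passed from 4 to 32 min with means of 1.36, 2.92, 2.07 and 2.41. REC107 passed from 32 to 64 min with −1.02, −1.03 and −1.16, and at 96 min, with −0.99, it was just outside.

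Other genes of the same processes were read from lists at 8, 32 and 128 min. Of 11 further genes of meiotic prophase, 1 was up and 5 were down at 32 min in YPD, with a median difference from 0 min of −0.39 against −0.05 over all genes and 22.4% of all genes up and 26.5% down. SPO16, which acts with the Zip proteins, fell by 1.51 at 128 min in YPD (limma adjusted p = 0.000392). Its mean ratio was 1.38 at 0 min, with an SD of 0.80, and −0.12 at 128 min. The call was lost against dormant spores and with the day as a fixed block. Of 23 recombination proteins that mitotic cells also use, 3 were up and 2 down at 8 min in YPD (all genes, 10.8% and 5.46%). At 128 min none was up and 9 were down, where 18.5% of all genes were up and 25.8% down. RAD54, a DNA motor protein of recombination, rose by 2.28 at 8 min in YPD (limma adjusted p = 0.000801), and MRE11, a nuclease of break ends, fell by 2.18 at 32 min (limma adjusted p = 5.23e-09). In glucose MRE11 was called down at 32 min as well, at −1.36 (limma adjusted p = 0.001).

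Of 15 partners in cohesin and monopolin, 3 were up and 5 down at 32 min in YPD (all genes, 22.4% and 26.5%), and 1 was up and 5 were down in glucose (8.32% and 9.15%). HRR25, the kinase of monopolin, rose by 1.64 at 8 min in YPD (limma adjusted p = 0.000281), and IRR1, a cohesin subunit, fell by 2.04 at 32 min (limma adjusted p = 1.53e-10). Among 19 repressors and regulators of meiotic entry, 2 were up and 8 down at 128 min in YPD (all genes, 18.5% and 25.8%). XBP1, a stress-induced repressor, fell by 2.91 (limma adjusted p = 5.58e-14), and KAR4, a transcription factor used in mating and meiosis, rose by 1.53 (limma adjusted p = 9.8e-06). Among 10 targets of Ume6 outside meiosis, 2 were up and 0 down at 8 min in YPD (all genes, 10.8% and 5.46%). At 128 min 1 was up and 3 were down (18.5% and 25.8%). The median difference was 0.18 at 8 min and 0.01 at 128 min, against −0.05 over all genes at both times. HSP82, a chaperone gene, rose by 2.14 at 8 min in YPD (limma adjusted p = 6.93e-08), and ACS1, for acetyl-CoA synthetase, fell by 5.58 at 128 min (limma adjusted p = 5.68e-08).

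The later sporulation genes and those of dividing cells gave the background of the cell population. Of 27 middle and late sporulation genes, 8 were above background in Cy3 on at least 50% of the arrays, 5 were up and 8 down at 32 min in YPD (all genes, 22.4% and 26.5%), and 1 was up and 9 were down at 128 min (18.5% and 25.8%). Their mean log2 ratio per array lay between 0.04 and 0.23 at 0 min and between −0.50 and −0.08 at 128 min in YPD. SPS100, a spore wall gene, fell by 4.51 at 32 min in YPD (limma adjusted p = 9.63e-11). Of 9 genes of cycling vegetative cells, 5 were above background in Cy3 on at least 50% of the arrays, 1 was up and 1 down at 32 min in YPD and none was called in glucose at these times. CLN3, a cyclin of the first gap phase, rose by 1.21 at 128 min in YPD (limma adjusted p = 0.000819). CDC21 of the same list fell by 1.09 at 8 min in YPD (limma adjusted p = 0.00146), with no Cy5 above background at 0 min. The median difference of the list at 128 min in YPD was −0.02, against −0.05 over all genes. The part of these genes in the members' values was not tested.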

How the data were processed

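Each array held 13056 spots, usually 2 per gene. Per the file headers, the authors quantified both dyes with ImaGene 6.0.1, and the deposited intensity values had no background subtraction or normalization. The deposited table of the authors holds log2 ratios of 6207 genes, averaged over replicates after loess, and was used as an alternative only. The submitters' processing notes name limma.

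Background was corrected on the mean spot intensity with limma 3.58.1 in R 4.3.3 (normexp, offset 50), and log2 ratios were normalized per array by global loess, so each value is relative to the bulk of genes on its array. Poor spots and those the authors had marked manually were excluded (8.49% to 24.4% per array), and the spots of a gene were averaged. Of 6218 genes on both layouts, 392 without a value in some group were left out. Differences were tested with limma (lmFit, eBayes), all 18 groups in 1 fit, with Benjamini-Hochberg adjustment within each contrast. A residual of 35 degrees of freedom and the signal over background, not a read depth, limit the precision. The methods describe independent experiments and the labels also scan replicates, so p-values may partly measure technical spread. The fit was tested on simulated data with known changes. A bound ("at least") is the Cy5 signal of the bright group over that of the dim group, with the dim group set no lower than the dimmest signal above background.

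The members and lists were chosen with earlier results of these data known. All 31 members are accounted for, and of each other list the largest called rise and fall at 8, 32 and 128 min were eligible to be named. SAE3 was matched by symbol. Alternatives changed the background correction, normalization, intensity measure, flags, filters, baseline, samples, and blocks for replicate number, layout and quantification day (statmod 1.5.0 for the random block). Fits without the second layout and without each single array were added after the data were seen. Promoter motifs were not analysed here.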

Additional observations from a re-analysis of the deposited data

Results flagged for a closer look

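The change of MEI5 since 0 min differed between the media at 64 min by 1.07 on the log2 scale (limma adjusted p = 0.0302), the only such difference called among the 30 members at 8 times. The means at 64 min were 0.67 in YPD and −0.45 in glucose, from −0.26 and −0.30 at 0 min. In glucose MEI5 went from −0.10 to −0.76 on the first array layout and from −0.51 to 0.17 on the second. On the quantification day that 0 and 64 min in glucose share, with 1 array each, MEI5 was 0.68 higher at 64 min. The part of layout and day in the difference between the media was not tested apart from the fits given here. The call was lost in 11 of 17 fits with arrays left out and in 7 of 16 other fits, with 0.90 (adjusted p = 0.102) for the day as a random block and 0.64 (adjusted p = 0.345) for the day as a fixed block. Without the arrays of the second layout the difference was 1.58, but 0 min in glucose then kept 1 array only. That fit also left out the glucose array at 0.17 of 64 min.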

How the results depend on the processing

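Of 114 member calls, 33 were kept with every array or replicate left out. In every other fit that gave a value 15 were kept, and 14 met both conditions, all in YPD. They included NDT80 at 8, 16 and 32 min, IME2 at 16, 32 and 96, and IME4 at 64 and 96. The others were MEI4 at 16 and 32, HOP1 at 16, REC114 and MND1 at 32 and RED1 at 64. Of these 14, only 5 were given a value by the fixed day block (NDT80 at 8, IME2 at 96, IME4 at 64 and 96, RED1 at 64), which could not be fitted for the other 9 at 16 and 32 min. Some further fits gave no value for the dimmer genes. MEI4 at 16 and 32, HOP1 at 16 and MND1 at 32 min had a value in 15 other fits each. NDT80 at 16 and 32 min had one in 16, and IME2 at these times in 17. The fit with dim genes left out gave a value for 47 calls in YPD, and that with empty spots left out for 44. With arrays left out, members up in YPD ranged from 5 to 10 (main value 8) and down from 10 to 15 (14). In glucose they ranged from 0 to 2 up (1) and from 0 to 15 down (9). The 0 came without glucose replicate 2, and without that array at 0 min alone 1 was down. Between media the ranges were 3 to 8 higher (7) and 1 to 8 lower (5), for the difference of changes 0 to 2 (1), and for the filter 2 to 3 up and 3 down in YPD and 0 to 1 in glucose.

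For the alternative fits and filters of this section the share of all genes was not counted. Their member counts can therefore not be set against the background. Members up in YPD numbered 5 with median pixels or the brightest spot and 4 with empty spots or dim genes left out. Members down in YPD were 7 with empty spots left out and 9 with day as a random block. In glucose 0 were up with plain subtraction, median centring, median pixels, all flags kept, the brightest spot, dim genes left out, only that medium's arrays or the random day block, 2 with the replicate block, 3 with print-tip loess or a layout block and 6 against dormant spores. Members down in glucose were 5 with plain subtraction, empty spots left out or the random day block, 2 with the fixed day block, 14 with the replicate block and 19 against dormant spores. Replicate numbers did not pair the samples: the median correlation of same-numbered arrays was 0.03 for YPD and 0.11 for glucose. The replicate block kept all 69 and 23 calls. Between media 3 were higher and 3 lower without background subtraction, 4 higher with empty spots left out, and 2 lower with the random day block. The difference of changes called 0 members with median centring or the random day block, 2 without background subtraction, with all flags kept, the replicate block or the layout block, and 3 with print-tip loess.

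The filter passed 1 up in YPD without background subtraction, with median centring, empty spots left out or the authors' table and 4 with plain subtraction. It passed 0 down without background subtraction or from the authors' table, 1 with print-tip loess and 8 with plain subtraction. In glucose 1 passed with plain subtraction, offset 16, median pixels, all flags kept or 0 min subtracted, and 2 with median centring. At 1 SD, 21 members were above background in Cy3.

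Differences that turned direction were MND1 in glucose at 32 (0.083) and 64 min (0.074) without background subtraction, and REC102 in YPD at 32 min (1.43) with plain subtraction. With the fixed day block they were ZIP3 (0.088) and NDJ1 (−0.51) at 48 min, NDJ1 (−0.87) and HOP2 (0.43) at 64 min and SCC2 (0.17) at 128 min in YPD, and SPO13 (0.00069) at 16 min in glucose. Against dormant spores in YPD they were MND1 (0.098) and KAR4 (0.016) at 8, SPO16 (0.21) at 32 and HOP2 (0.071) at 64 min. The causes were not tested. The fixed day block gave 24 of 33 contrasts. Signal over background limits these genes, of which 12 were under it on most arrays in both dyes.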
